A study of Mus musculus with 6 samples.

Results

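Integrins and laminins were represented by 37 of the 45792 genes in a table of raw read counts from whole hearts of mouse embryos at embryonic day 13.5. The members were taken by gene symbol: every row named as an integrin alpha chain, an integrin beta chain, or a laminin alpha, beta or gamma chain. This gave 18 integrin alpha chains, 8 integrin beta chains, 5 laminin alpha chains, 3 laminin beta chains and 3 laminin gamma chains. RNA was sequenced from 3 control hearts (labelled WT, wild-type) and 3 mutant hearts (labelled KO), and the mutant embryos were Tie2Cre;Ino80 fl/fl. In these embryos Cre recombinase is driven by the Tie2 promoter, active in endothelial cells and blood cells, and is meant to remove the floxed exon 6 of Ino80, the ATPase of a chromatin remodeling complex, from those cells and their descendants while other heart cells keep the gene. The labels give the strain as C57BL/6, whereas the study's methods describe transgenic mice on mixed backgrounds with litter mate controls, and its text counts as controls every genotype other than Tie2Cre;Ino80 fl/fl. The comparison of the 3 control with the 3 mutant hearts asks which transcripts of the heart differ when endothelial cells lack Ino80.

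Integrins are cell surface receptors made of 1 alpha and 1 beta chain, which bind extracellular matrix or proteins on other cells and connect them to the actin cytoskeleton. Laminins are secreted trimers of an alpha, a beta and a gamma chain that form the sheet on which a basement membrane is built, and several integrins and the dystroglycan complex of muscle are their receptors. In the developing heart, basement membranes lie under the endocardium and epicardium, around cardiomyocytes and around growing vessels, and the fibronectin receptor made of Itga5 and Itgb1 is known to be needed for vascular development.

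Between 28.9 and 89.7 M counts per heart were available, and the deepest library held 3.1 times as many as the shallowest. Ino80 itself was at 30.2, 31.6 and 32.7 counts per M (CPM, scaled by TMM, which corrects library totals for composition) in control replicates 1 to 3 and at 36.5, 33.7 and 31.8 CPM in mutant replicates 1 to 3. These counts cover all exons and all cell types of the heart, so they check nothing about a deletion of 1 exon in endothelial cells, and the hearts are named by their labels. The label of the tissue matched its markers, since all 12 cardiomyocyte markers and all 16 pan-endothelial markers were measured in every heart, with Myh7, a cardiac myosin heavy chain, at 5246 CPM and Cdh5, the cadherin of endothelial junctions, at 262 CPM on average in control hearts. The members together took between 0.255% of the counts in control replicate 2 and 0.33% in mutant replicate 1. Of the 36 members tested, control replicate 2 was the lowest of all 6 hearts in 21, and the same share over all genes was not computed. Low values of this heart were not limited to the members. Its sum was also the lowest over the pan-endothelial (1197 CPM) and epicardial markers (234 CPM). Over the smooth muscle and pericyte markers its sum was the highest (2394 CPM). Exonic bases of 12 of the 37 members are shared with another annotated gene, Lamc3 and Itgb4 among them on the opposite strand, and since the use of strand in counting is not known, reads from such pairs cannot be told apart. In bulk tissue, fewer cells of a type and less RNA per cell cannot be told apart.

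The heart expressed a small number of chains at high level and most others at low level. Levels of different genes are compared here as CPM per kb of merged exon. Among integrin beta chains, Itgb1, the partner of most alpha chains, was at 230 ± 17.1 CPM per kb in control hearts and 224 ± 3.88 in mutant hearts (SD, n = 3), which was 81.3% and 80.4% of the length-scaled sum over all beta chains. Itgb5, an alpha v partner that binds vitronectin, followed with 17.3% and 18.1%. The other 6 beta chains each made up less than 1% of that sum in both groups.

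Among the alpha chains, Itga5, which forms the main fibronectin receptor with Itgb1, was the highest at 35.8 ± 2.83 CPM per kb in control hearts and 42.5 ± 2.30 in mutant hearts (SD, n = 3), or 39.3% and 42.4% of the alpha sum. It was followed by the laminin receptor chain Itga6 (18.6 ± 4.04 and 22.4 ± 1.41 CPM per kb), by Itga9, a receptor chain for tenascin-C among other ligands (11.4 ± 2.86 and 10.3 ± 0.987), and by Itgav, the alpha v chain of RGD receptors (8.21 ± 2.77 and 7.34 ± 0.677). The SDs of Itga9 and Itgav overlapped in control hearts and did not overlap in mutant hearts, but within every heart Itga9 was above Itgav. Itga9 took 12.8%, 10.6% and 13.7% of the alpha sum in control replicates 1 to 3, and Itgav 10.6%, 6.63% and 9.17%. In mutant replicates 1 to 3 the shares were 10.3%, 11.3% and 9.25% for Itga9 and 7.71%, 7.61% and 6.63% for Itgav. Itga3, Itga1 and Itga8 stood between 3.44 and 5.25 CPM per kb in control hearts, and Itga2b and Itga2 close to 1, with overlapping SDs. The remaining 9 alpha chains, from Itga7 at 0.703 down to Itgax at 0.0665 CPM per kb, were lower.

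The laminin chains were as uneven. Lama4, the alpha chain typical of vessels, was at 22.4 ± 2.13 CPM per kb in control and 22.5 ± 1.96 in mutant hearts (SD, n = 3) and made up 75.4% and 75.5% of the alpha sum. Lama5, a widespread chain also found in vessel walls, made up 15.0% and 16.2%, and Lama2, the chain of muscle basement membranes, made up 8.37% and 6.79%. Lamb1 and Lamb2 shared the beta sum with 63.6% and 34.1% in control hearts and 64.6% and 33.7% in mutant hearts. Lamc1 held 92.6% of the gamma sum in control hearts and 91.9% in mutant hearts. Lama1, Lama3, Lamb3 and Lamc3 were the minor chains, among them Lamc3 at 0.0463 ± 0.0213 CPM per kb in control hearts and 0.0938 ± 0.0283 in mutant hearts. The SDs of Lamc3 and Lama1 (0.0578 ± 0.0271 in control hearts) overlapped in control hearts, which leaves their order unresolved there.

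**Figure D1:**
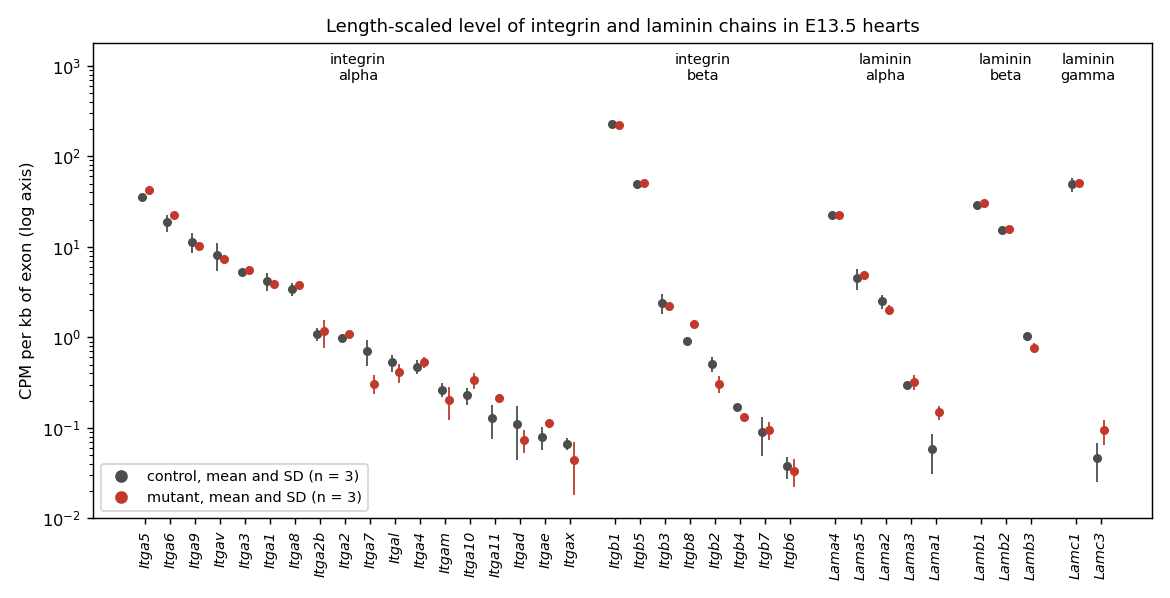
Length-scaled level of the integrin and laminin chains in E13.5 hearts, with 1 chain not shown, in CPM per kb of exon on a log axis, with points for the mean and bars for the SD of the 3 control (grey) and 3 mutant (red) hearts. Itgb1 is the highest chain in both groups (230 and 224), and Lama4, Lamb1 and Lamc1 lead their laminin classes with the groups close together.

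Of the 37 members, 36 had enough counts to be tested. Itgb7, a leukocyte beta chain, was not, at 0.249 ± 0.112 CPM in control and 0.263 ± 0.0598 in mutant hearts (SD, n = 3). In edgeR's quasi-likelihood test, adjusted by Benjamini-Hochberg over the 17125 genes tested, no member passed an adjusted p of 0.05, and neither did any other gene (0%). At an unadjusted p under 0.05, 7 of 36 members (19.4%) differed between the groups, which is the share of all tested genes that did so (19.5%). Of these, 4 were higher in mutant hearts (Itgb8, Lama1, Itga5 and Lamc3), beside 9.48% of all tested genes, and 3 were lower (Itga7, Itgb2 and Lamb3), beside 9.98% of all tested genes. The values of the groups did not overlap for 11 members (30.6%), of which 7 were higher and 4 lower in mutant hearts, beside 27.1% of all tested genes. The median log2 fold change was 0.048 over the tested members and -0.0017 over all tested genes. With DESeq2, the program the study used, 3 members passed an adjusted p of 0.05 (Itgb8, Itga7 and Lama1), beside 6.23% of the 16221 genes to which it gave an adjusted p. The count of members higher at an unadjusted p was 7 without control replicate 1, and the count lower was 5 without control replicate 2. As a class, then, integrins and laminins differed between the groups about as often as other genes with all 6 hearts, and the differences below concern single chains.

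**Figure D2:**
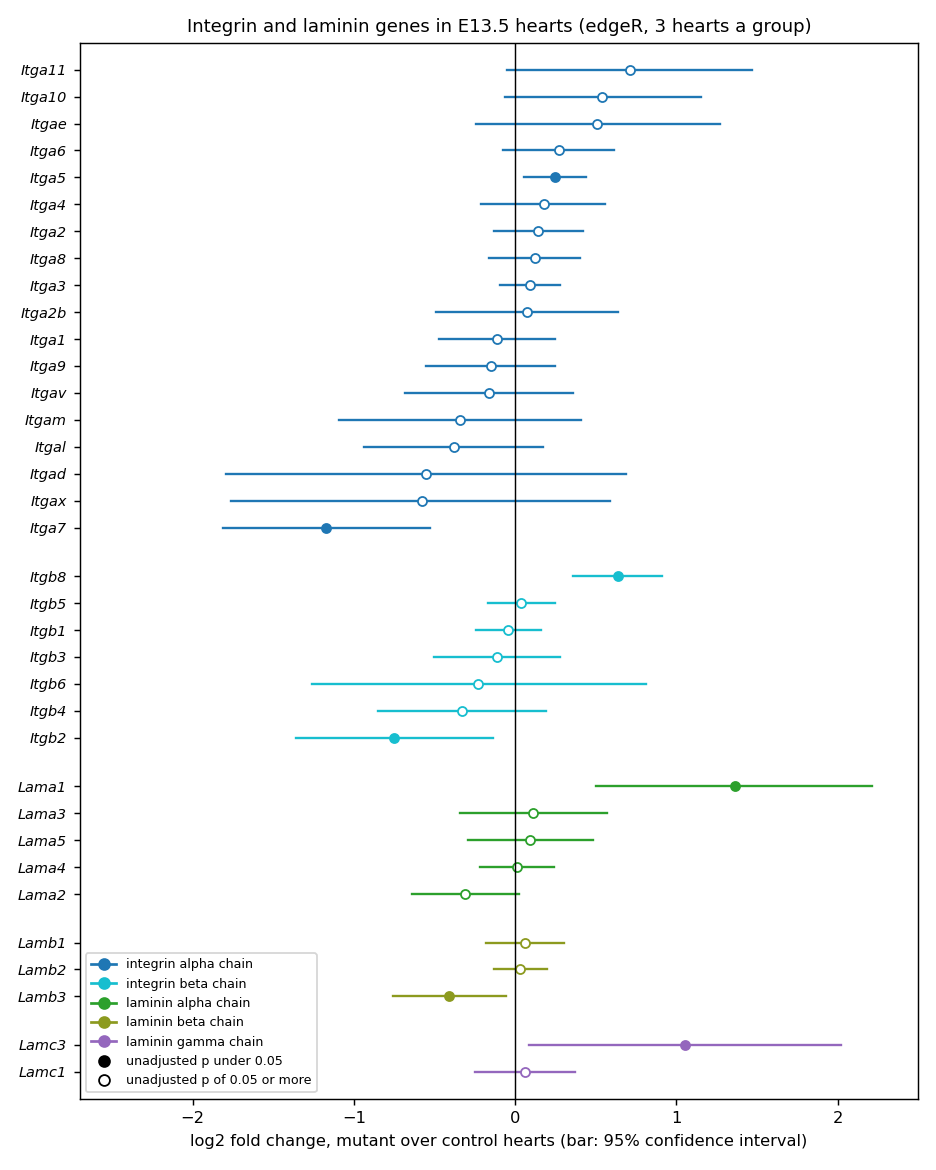
Log2 fold change of the tested members, with 1 not shown, mutant over control hearts, with the 95% confidence interval from edgeR; filled points have an unadjusted p under 0.05. The intervals of the abundant chains Itgb1, Itgb5, Lama4, Lamb1, Lamb2 and Lamc1 span 0, while those of Itgb8 (0.36 to 0.91), Itga7 (-1.81 to -0.53) and the abundant Itga5 (0.055 to 0.44) do not.

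Itgb8, the beta chain that with Itgav binds and activates latent TGF-beta, was higher in mutant hearts. Its level was 11.0, 9.60 and 9.41 CPM in control replicates 1 to 3 and 17.5, 15.0 and 14.2 CPM in mutant replicates 1 to 3. Every mutant heart was above every control heart. The means were 10.0 ± 0.886 and 15.5 ± 1.69 CPM (SD, n = 3), a 1.55-fold difference with a log2 fold change of 0.64 (standard error, SE, 0.12, edgeR adjusted p = 0.083, DESeq2 adjusted p = 0.0011). Even so it remained a minor chain, at 0.320% of the length-scaled beta sum in control and 0.506% in mutant hearts. With any 1 of the 6 hearts removed, DESeq2 still called Itgb8, with adjusted p between 4.8e-04 and 0.039. The gene (ENSMUSG00000025321.12) lies on chromosome 12 of GRCm38 from 119158022 to 119238802, on the minus strand.

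Itgav, its alpha partner, overlapped between the groups. It was at 112, 54.8 and 97.8 CPM in the control hearts and 85.1, 80.6 and 70.9 CPM in the mutant hearts. The 3 mutant hearts lay inside the range of the controls, where control replicate 2 was far below the others. The log2 fold change of Itgav was -0.16 (95% confidence interval -0.68 to 0.36). Removing control replicate 1 gave 0.05, and removing control replicate 2 gave -0.41, where DESeq2 called Itgav as lower (adjusted p = 0.033). The other Itgav partners also overlapped between the groups. Itgb5 had a log2 fold change of 0.038 (-0.17 to 0.25) and Itgb3 one of -0.11 (-0.50 to 0.28). Without control replicate 2, Itgb3 had one of -0.30, at an unadjusted edgeR p under 0.05. Itgb6, which like Itgb8 binds latent TGF-beta, had one of -0.23 on 7 to 14 counts per heart. Its wide interval (-1.26 to 0.81) leaves a difference in either direction open. The 95% interval of Itgb1 ran from -0.24 to 0.16 around a log2 fold change of -0.042, and its levels were 1015, 877 and 927 CPM in control hearts and 919, 924 and 894 CPM in mutant hearts.

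Itga7, the laminin-binding alpha chain of cardiac and skeletal muscle, was the member with the largest difference towards lower values in mutant hearts. It was at 3.81, 7.46 and 5.80 CPM in control replicates 1 to 3 and at 3.13, 2.40 and 1.95 CPM in mutant replicates 1 to 3. The groups did not overlap, although control replicate 1 came close to mutant replicate 1, and control replicate 2 was the highest. From 5.69 ± 1.83 to 2.49 ± 0.594 CPM (SD, n = 3), the level was 2.25-fold lower, with a log2 fold change of -1.17 (SE 0.28, edgeR adjusted p = 0.1, DESeq2 adjusted p = 0.0025). In DESeq2 fits that left out 1 heart, Itga7 passed in 5 of 6 and had an adjusted p of 0.075 without control replicate 2. The gene (ENSMUSG00000025348.8) occupies chromosome 10 from 128933818 to 128958282 on the plus strand, and shares exonic bases with Mettl7b on the opposite strand, which was at 0.103 CPM or less in every heart. Over the 12 cardiomyocyte markers, 10 had a negative log2 fold change, with 2 higher (Myh6 and Myl7) and 2 lower (Pln and Tnni3) at an unadjusted p under 0.05 and a summed level of 27451 to 33499 CPM in control and 27439 to 29160 CPM in mutant hearts. Of the 12 smooth muscle and pericyte markers, 4 were lower (Rgs5, Myh11, Actg2 and Kcnj8) and 1 higher (Cnn1) at that p. The sum of this list, 2093 to 2394 CPM in control and 2152 to 2247 CPM in mutant hearts, was mostly that of Acta2 and Des, and the mean of log2(CPM + 1) over the list, in which each gene counts equally, was 5.56, 5.84 and 6.17 in the control hearts and 5.47, 5.46 and 5.41 in the mutant hearts, without overlap. The log2 fold change of Rgs5, a pericyte marker, was -2.62, that of Kcnj8 -0.74 and that of Cnn1 0.48. That of Myh11 was -2.40 and that of Actg2 -1.93, and without control replicate 3 they were -1.75 and -1.07. Myh11 and Actg2 each overlapped between the groups, with control replicate 1 at 0.604 and 1.02 CPM and mutant replicate 2 at 0.705 and 1.03 CPM. The part of these cells in the Itga7 difference was not tested.

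Itga5, the most abundant alpha chain, was slightly higher in mutant hearts. It was at 177, 162 and 190 CPM in the control hearts and 209, 199 and 221 CPM in the mutant hearts. The highest control heart, replicate 3, was below the lowest mutant heart, replicate 2. The 1.19-fold difference had a log2 fold change of 0.25 (SE 0.084, 95% confidence interval 0.055 to 0.44, edgeR adjusted p = 0.18, DESeq2 adjusted p = 0.11). The unadjusted edgeR p was 0.063 without mutant replicate 3, and DESeq2 called Itga5 without control replicate 3 (adjusted p = 0.046). Fn1, the gene of its ligand fibronectin, was at 385, 221 and 453 CPM in the control hearts and 629, 469 and 475 CPM in the mutant hearts, with a log2 fold change of 0.57 (SE 0.24, edgeR adjusted p = 0.25, DESeq2 adjusted p = 0.31).

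The sequence upstream of Itga5 and Itgb1 is shown because they encode the 2 chains of the fibronectin receptor and are the most abundant alpha and beta chains. Each window is the 250 bases before the RefSeq transcription start on GRCm38, written 5′ to 3′ on the gene's strand, with GC box letters (GGGCGG or its reverse complement) in capitals. Itga5 (chr15:103366792-103367041, minus strand) held 2 GC boxes and 55.6% G and C, and Itgb1 (chr8:128685404-128685653, plus strand) held 1 GC box and 68% G and C.
Itga5: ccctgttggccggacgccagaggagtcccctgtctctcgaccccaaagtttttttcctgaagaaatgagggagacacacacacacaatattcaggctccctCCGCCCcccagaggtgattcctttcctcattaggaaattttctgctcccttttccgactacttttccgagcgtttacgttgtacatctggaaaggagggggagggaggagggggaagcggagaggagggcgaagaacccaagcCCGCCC
Itgb1: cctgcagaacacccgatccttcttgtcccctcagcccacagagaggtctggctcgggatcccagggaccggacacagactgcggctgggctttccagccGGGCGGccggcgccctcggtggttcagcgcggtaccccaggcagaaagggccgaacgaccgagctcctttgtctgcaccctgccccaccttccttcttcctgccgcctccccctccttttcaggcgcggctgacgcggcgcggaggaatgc
Windows of this length were at hand for 23 of the 37 members, without Itga7 and Lama1. GC box letters were present in 8 of these 23 (34.8%) and in 35.4% of all 27025 genes with a window, CCAAT on either strand in 4 (17.4%, beside 37.5%), TATAAA in 0 (beside 14.3%), and an E2F site spelled as TTTCCCGC, TTTCGCGC, TTTGCCGC or TTTGGCGC on either strand in 0 (beside 2.16%). E2F and GC box spellings can share letters where they adjoin, and a match or its absence describes these letters in this window only.

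Itga3 and Itga6 are further laminin-binding alpha chains. Itga6 was at 201, 129 and 174 CPM in the control hearts and 214, 204 and 189 CPM in the mutant hearts. Control replicate 2 was again the lowest, and control replicate 1 overlapped with the mutant hearts. Its log2 fold change was 0.27 (95% confidence interval -0.073 to 0.61). Removing control replicate 2 gave 0.11. Removing control replicate 1 gave 0.42, and DESeq2 then called Itga6 as higher (adjusted p = 0.047). Itga3 differed little, at 30.0 ± 0.904 and 31.9 ± 2.21 CPM (SD, n = 3), with a log2 fold change of 0.092 (-0.093 to 0.28). Whether the fold changes of Itga3, Itga6 and Itga7 differ from each other was not tested.

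Collagen-binding alpha chains pair with Itgb1. Itga1 was the most abundant of them at 78.4 ± 17.9 CPM in control and 72.5 ± 8.15 CPM in mutant hearts (SD, n = 3), with a log2 fold change of -0.11 (-0.47 to 0.25). Itga11, known from mesenchymal cells, was at 0.972, 0.477 and 0.525 CPM in the control hearts and 0.984, 1.08 and 1.23 CPM in the mutant hearts. The groups did not overlap, but control replicate 1 nearly reached mutant replicate 1, and the log2 fold change of 0.71 had an interval from -0.051 to 1.47. Itga2 likewise did not overlap, at 6.46, 7.22 and 7.38 CPM in the control hearts and 8.33, 7.40 and 7.49 CPM in the mutant hearts, with a log2 fold change of 0.14 (-0.13 to 0.42). The gap between the groups of Itga2 was smaller than the spread within each of them. Itga10, a chondrocyte chain, had a log2 fold change of 0.54 (-0.064 to 1.15). Without control replicate 1, Itga10 (0.72) and Itga11 (1.12) reached an unadjusted edgeR p under 0.05.

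The remaining alpha chains that bind matrix or vascular ligands had 95% confidence intervals that spanned 0 with all 6 hearts. Itga4, which binds fibronectin and Vcam1, had a log2 fold change of 0.18 (-0.21 to 0.56). Itga8, the receptor chain for nephronectin, had one of 0.12 (-0.16 to 0.40), and Itga9 one of -0.15 (-0.55 to 0.25). Both depended on single hearts in edgeR. Itga8 reached an unadjusted p under 0.05 without control replicate 1 (log2 fold change 0.27), and Itga9 without control replicate 2 (-0.34). Itga2b, the platelet chain that pairs with Itgb3, was at 6.01 ± 0.985 and 6.36 ± 2.20 CPM (SD, n = 3), and none of the 11 tested megakaryocyte and platelet markers of 14 listed had an unadjusted p under 0.05.

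Itgb2, the common beta chain of the leukocyte integrins, was lower in mutant hearts. It was at 1.37, 1.91 and 1.42 CPM in the control hearts and 0.789, 0.870 and 1.16 CPM in the mutant hearts, so that the lowest control heart was above the highest mutant heart. Its log2 fold change was -0.75 (SE 0.27, 95% confidence interval -1.36 to -0.14, edgeR adjusted p = 0.19, DESeq2 adjusted p = 0.18). The unadjusted p of Itgb2 was 0.076 after thinning all hearts to the smallest total, 0.078 without control replicate 2, 0.076 without mutant replicate 1 and 0.071 without mutant replicate 2. Its alpha partners were each lower on average and overlapped between the groups. Itgal, of lymphocytes and other leukocytes, had a log2 fold change of -0.38 (-0.94 to 0.17), Itgam, of macrophages and neutrophils, of -0.34 (-1.09 to 0.41), Itgax, of dendritic cells and macrophages, of -0.58 (-1.76 to 0.59) and Itgad of -0.55 (-1.79 to 0.69). Itgax had 3 to 24 counts per heart, and the value of Itgad is uncertain because its exons overlap those of other genes, among them Cox6a2 on the opposite strand at 142 and 102 CPM on average. Among 14 myeloid markers, 1 was higher (Cx3cr1) and 2 were lower (Ptprc and C1qb) at an unadjusted p under 0.05, 7 had a positive and 7 a negative log2 fold change, and their summed level was 108 to 145 CPM in control and 124 to 139 CPM in mutant hearts. Of 8 lymphocyte markers 6 were matched, and together they were at 1.06 CPM or less in every heart. The part of blood cells, in which Tie2Cre is also active, in the Itgb2 difference was not tested.

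Itgae, the alpha chain of intraepithelial lymphocytes, which pairs with Itgb7, was at 0.473, 0.340 and 0.278 CPM in the control hearts and 0.584, 0.494 and 0.479 CPM in the mutant hearts. All mutant hearts were above the controls by a narrow margin, with a log2 fold change of 0.51 (-0.24 to 1.27). Itgb4, the hemidesmosome chain that pairs with Itga6, was at 1.10, 1.19 and 1.23 CPM in the control hearts and 0.973, 0.870 and 0.957 CPM in the mutant hearts. Here every mutant heart was below the controls, and the log2 fold change was -0.33 (-0.85 to 0.19). Both genes are low, and neither had an unadjusted p under 0.05.

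**Figure D3:**
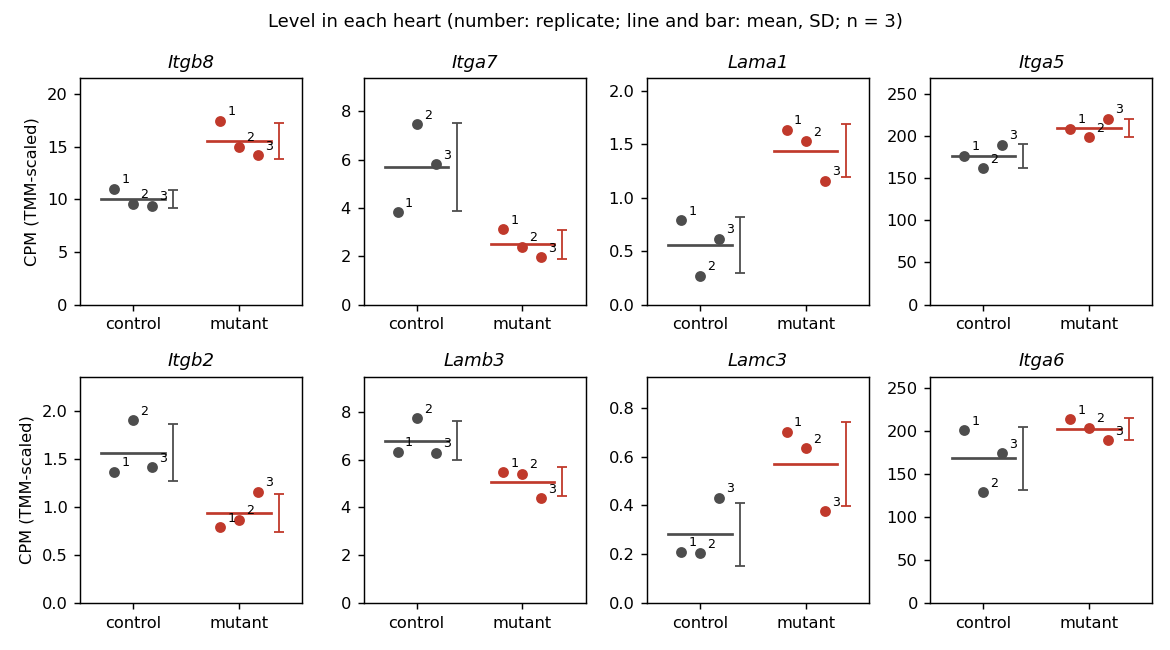
Level in each heart, in TMM-scaled CPM on axes that start at 0, of the 7 members with an unadjusted p under 0.05 and of Itga6; numbers mark the replicate, horizontal lines the mean and bars the SD (n = 3). The control and mutant hearts are separate in Itgb8, Itga7, Lama1, Itga5, Itgb2 and Lamb3, and overlap in Lamc3 and Itga6.

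Among laminin alpha chains, Lama1, the chain of the first embryonic basement membranes, was higher in mutant hearts at a low level. It was at 0.788, 0.272 and 0.617 CPM in the control hearts and 1.64, 1.53 and 1.16 CPM in the mutant hearts, from 30, 8, 20, 152, 65 and 34 counts. No mutant heart reached down to the controls, and control replicate 2 was the lowest. The means were 0.559 ± 0.263 and 1.44 ± 0.251 CPM (SD, n = 3), a 2.56-fold difference with a log2 fold change of 1.36 (SE 0.37, edgeR adjusted p = 0.13, DESeq2 adjusted p = 0.036). With 1 heart removed, DESeq2 kept this call in 1 of 6 fits, that without control replicate 1, with an adjusted p of 0.014. The gene (ENSMUSG00000032796.7) lies on chromosome 17 from 67697259 to 67822647 on the plus strand. Even in mutant hearts Lama1 made up 0.501% of the length-scaled alpha sum, beside 0.193% in control hearts.

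The other laminin alpha chains overlapped between the groups. Lama4 was at 263, 248 and 298 CPM in the control hearts and 295, 248 and 272 CPM in the mutant hearts, with a log2 fold change of 0.0096 (95% confidence interval -0.22 to 0.24). Lama5, with 0.095 (-0.29 to 0.48), and Lama3, with 0.11 (-0.34 to 0.57), overlapped as well. Without control replicate 3, Lama5 had a log2 fold change of 0.33, at an unadjusted edgeR p under 0.05. Lama2 was at 37.9, 35.2 and 49.5 CPM in the control hearts and 35.2, 35.2 and 28.5 CPM in the mutant hearts. Control replicate 3 was the highest and mutant replicate 3 the lowest, while the other 4 hearts were nearly level. Its log2 fold change was -0.31 (-0.64 to 0.022) and -0.15 without control replicate 3.

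Laminin beta and gamma chains gave a mixed picture. Lamb3, a chain of epithelial laminin, was at 6.33, 7.73 and 6.30 CPM in the control hearts and 5.47, 5.41 and 4.38 CPM in the mutant hearts. All mutant hearts were below the controls, and the log2 fold change was -0.41 (SE 0.15, 95% confidence interval -0.76 to -0.058, edgeR adjusted p = 0.2, DESeq2 adjusted p = 0.18). The unadjusted p of Lamb3 was 0.093 without control replicate 2 and 0.093 without mutant replicate 3. Lamc3 was at 0.210, 0.204 and 0.432 CPM in the control hearts and 0.703, 0.635 and 0.376 CPM in the mutant hearts, with mutant replicate 3 below control replicate 3. On 6 to 65 counts per heart its log2 fold change was 1.05 (SE 0.42, edgeR adjusted p = 0.23, DESeq2 adjusted p = 0.33). The unadjusted p of Lamc3 was 0.081 with the replicate number as a block, 0.12 without control replicate 1, 0.11 without control replicate 2, 0.12 without mutant replicate 1 and 0.087 without mutant replicate 2. Lamb1, Lamb2 and Lamc1, the main partners of Lama4 and Lama5, had log2 fold changes of 0.063 (-0.18 to 0.30), 0.032 (-0.13 to 0.20) and 0.058 (-0.25 to 0.37).

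Epithelial and epicardial markers were read beside these minor laminin chains. The 11 matched of 13 epithelial markers summed to 20.4 to 40.0 CPM in control and 43.6 to 48.2 CPM in mutant hearts, almost all of it from the keratins Krt8, Krt18 and Krt19, while the defining markers Epcam and Cdh1 were at 0.224 CPM or less on average in both groups. Of 10 epicardial markers, 3 were higher (Upk3b, Krt19 and Lrrn4) and 1 was lower (Upk1b) at an unadjusted p under 0.05, and their sum was 234 to 260 CPM in control and 272 to 305 CPM in mutant hearts. The part of these cells in the differences of Lama1, Lamb3 and Lamc3 was not tested.

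The balance between 2 chains of the same kind, both alpha or both beta, was compared as a log2 ratio of CPM within each heart, which does not depend on library scaling. The 6 pairs were Lama4 over Lama5, Lama2 over Lama4, Lamb2 over Lamb1, Itga6 over Itga5, Itga1 over Itga2 and Itgb3 over Itgb5. The largest difference was that of Lama2 over Lama4, which was -2.80, -2.82 and -2.59 in the control hearts and -3.07, -2.82 and -3.25 in the mutant hearts. Mutant replicate 2 was level with control replicate 2, and the mean was lower by a log2 ratio difference of -0.31 (exact two-sided permutation test, p = 0.2, adjusted p = 0.72 over the 6 pairs). The other 5 pairs differed by -0.24 to 0.042, with exact permutation p from 0.3 to 0.9 and adjusted p from 0.72 to 0.9. With 3 hearts against 3 this test cannot go below 0.1.

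Some members lie side by side in the genome. On chromosome 13 of GRCm38, the collagen receptor genes Itga2 and Itga1 are 21 kb apart, with log2 fold changes of 0.14 and -0.11. On chromosome 7, Itgam and Itgax are 11.1 kb apart and Itgax and Itgad 3.72 kb apart, and all of these had negative values that overlapped between the groups.

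Genes that work with integrins inside the cell were measured as a list of 30, of which 28 were tested. At an unadjusted p under 0.05, 2 were higher and 8 lower in mutant hearts (35.7%, beside 19.5% of all tested genes). With DESeq2 at an adjusted p under 0.05, 0 were higher and 3 lower, beside 6.23% of all genes it adjusted. This list and those of the next paragraphs were chosen with earlier results of these data known. Their shares are therefore a description and not a test against all genes. The count of lower genes was 4 without control replicate 3, mutant replicate 2 or mutant replicate 3, and 5 without mutant replicate 1. In fits that left out 1 heart, 13.7% to 22.8% of all tested genes had an unadjusted p under 0.05 in either direction. The lower genes were led by Itgb1bp2 (melusin), a muscle protein that binds the tail of Itgb1. It was at 41.0, 69.3 and 57.5 CPM in the control hearts and 29.1, 32.1 and 33.7 CPM in the mutant hearts, with a log2 fold change of -0.82 (edgeR adjusted p = 0.088, DESeq2 adjusted p = 2.3e-04). Every mutant heart was below every control heart. Fermt2 (kindlin-2), an activator of integrins, had a log2 fold change of -0.30 and was at 288, 328 and 295 CPM in the control and 247, 243 and 248 CPM in the mutant hearts. Lims2, an adaptor bound to integrin-linked kinase, had one of -0.91, and Tns3, a tensin of adhesion sites, one of -0.23, again without overlap. The unadjusted p of Tns3 lay between 0.057 and 0.079 without control replicate 3, mutant replicate 2 or mutant replicate 3. The 2 higher genes were the kinase Src (0.34) and the actin crosslinker Actn1 (0.32), while Tln1, the talin that links integrins to actin, had a log2 fold change of -0.026. Ilk, integrin-linked kinase, was at 0.522 ± 0.236 CPM in control hearts (SD, n = 3), although its binding partners Parva and Lims1 were at 180 and 254 CPM, and Itgb1bp1 was listed at 0 in the control hearts. The values of Ilk and Itgb1bp1 are therefore uncertain, and the cause was not tested.

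Ligands of integrins other than laminins were a list of 30, of which 26 were tested. At an unadjusted p under 0.05, 6 were higher and 4 lower (38.5%, beside 19.5% of all tested genes). With DESeq2 at an adjusted p under 0.05, 3 were higher and 2 lower, beside 6.23% of all genes it adjusted. The count of lower genes was 2 without mutant replicate 1 or mutant replicate 3. Npnt (nephronectin), the ligand of the Itga8 receptor, was at 33.6, 21.9 and 24.6 CPM in the control hearts and 47.2, 49.1 and 43.7 CPM in the mutant hearts, with a log2 fold change of 0.80 (edgeR adjusted p = 0.083, DESeq2 adjusted p = 7.1e-05). The mutant hearts were all above the controls. Ltbp1, which anchors latent TGF-beta in the matrix, had a log2 fold change of 0.57 (edgeR adjusted p = 0.14, DESeq2 adjusted p = 0.016), Igfbp2, an RGD-containing binding protein for insulin-like growth factors, one of 0.82, and Emilin1, an elastic fiber glycoprotein, one of 0.29. Among the lower ligands, Postn (periostin), a matrix protein of valve and fibroblast cells, was at 601, 509 and 553 CPM in the control hearts and 426, 387 and 418 CPM in the mutant hearts. Its groups did not overlap, and its log2 fold change was -0.43 (edgeR adjusted p = 0.085, DESeq2 adjusted p = 4.9e-04). Fbln5, an elastic fiber protein, was at 28.0, 25.3 and 66.3 CPM in the control hearts and lower in every mutant heart (15.0 ± 2.84 CPM, SD, n = 3), and its log2 fold change of -1.40 was -0.82 without control replicate 3. Spp1 (osteopontin) was at 2.99, 5.75 and 3.02 CPM in the control hearts and 2.22, 2.61 and 2.15 CPM in the mutant hearts, with a log2 fold change of -0.75 that was -0.37 without control replicate 2 (unadjusted p = 0.10). In both genes a single control heart was far above the others. Icam2, an endothelial ligand of leukocyte integrins, had a log2 fold change of -0.30, and of -0.16 without control replicate 3 (unadjusted p = 0.081). In the 10 fibroblast and cushion mesenchyme markers, an unadjusted p under 0.05 was reached by 2 genes that were higher (Twist1, log2 fold change 0.96, and Sox9, 0.37) and 4 that were lower (Dpt, -1.89, Fap, -0.90, Dcn, -0.46, and Lum, -0.42). Dpt, Dcn and Lum did not overlap between the groups, and the p of Fap and of Sox9 missed 0.05 in 3 of 6 fits with 1 heart removed. The sum of the list, 2164 to 3386 CPM in control and 2138 to 2955 CPM in mutant hearts, was mostly that of collagen genes, and the part of those cells in the Postn difference was not tested.

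Partners of laminin in the basement membrane were a list of 24, all tested. At an unadjusted p under 0.05, 6 were higher and 1 lower (29.2%, beside 19.5% of all tested genes). With DESeq2 at an adjusted p under 0.05, 3 were higher and 1 lower, beside 6.23% of all genes it adjusted. The count of lower genes was 3 with control replicate 1 removed and 2 with control replicate 2 removed. The higher genes were led by Npnt, which is also in the list of ligands, by Fbln1, a fibulin of basement membranes (log2 fold change 0.47), by Col4a6, a chain of type IV collagen (0.55), and by Nid2, a nidogen that links laminin to collagen (0.35). Col4a6 was at 37.9, 26.1 and 38.5 CPM in the control hearts and 54.4, 45.0 and 50.3 CPM in the mutant hearts. All mutant hearts were above the controls, whereas the far more abundant Col4a1 and Col4a2 overlapped, with log2 fold changes of -0.13 and -0.06. Ntn4, a netrin that binds laminin gamma chains, was the lower gene, at 24.7, 39.7 and 46.3 CPM in the control hearts and 16.2, 17.4 and 20.4 CPM in the mutant hearts, with a log2 fold change of -1.04 (edgeR adjusted p = 0.084, DESeq2 adjusted p = 6.2e-05). Nid1 (-0.16) and Hspg2, the gene of perlecan (-0.083), overlapped between the groups.

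Receptors of laminin other than integrins, with the dystroglycan complex of muscle, were a list of 30, all tested. At an unadjusted p under 0.05, 5 were higher and 6 lower (36.7%, beside 19.5% of all tested genes). With DESeq2 at an adjusted p under 0.05, 0 were higher and 5 lower, beside 6.23% of all genes it adjusted. The count of higher genes was 2 without control replicate 2, mutant replicate 2 or mutant replicate 3. Dmd (dystrophin), which connects the complex to actin, was at 80.8, 86.7 and 96.2 CPM in the control hearts and 69.0, 64.2 and 61.6 CPM in the mutant hearts, with a log2 fold change of -0.44 (edgeR adjusted p = 0.083, DESeq2 adjusted p = 0.0023). All mutant hearts were below the controls. Dtna, a dystrobrevin, and Sgcb, a sarcoglycan, had log2 fold changes of -0.67 and -0.27 without overlap. Dag1, which encodes dystroglycan itself, was level at 431 ± 34.3 and 434 ± 15.0 CPM (SD, n = 3), with a log2 fold change of 0.01. The higher genes were led by Gyltl1b, a glycosyltransferase of dystroglycan (1.13, at less than 1 CPM on average in both groups), Sv2a, a synaptic vesicle protein (0.23), Sdc1, a heparan sulfate proteoglycan (0.29), and Dtnb, a dystrobrevin (0.31). The unadjusted p of Sv2a, Sdc1 and Dtnb missed 0.05 in 1, 3 and 4 of the 6 fits with 1 heart removed. Like Itga7, the muscle genes Itgb1bp2, Dmd and Dtna stand beside the cardiomyocyte marker values given above.

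**Figure D4:**
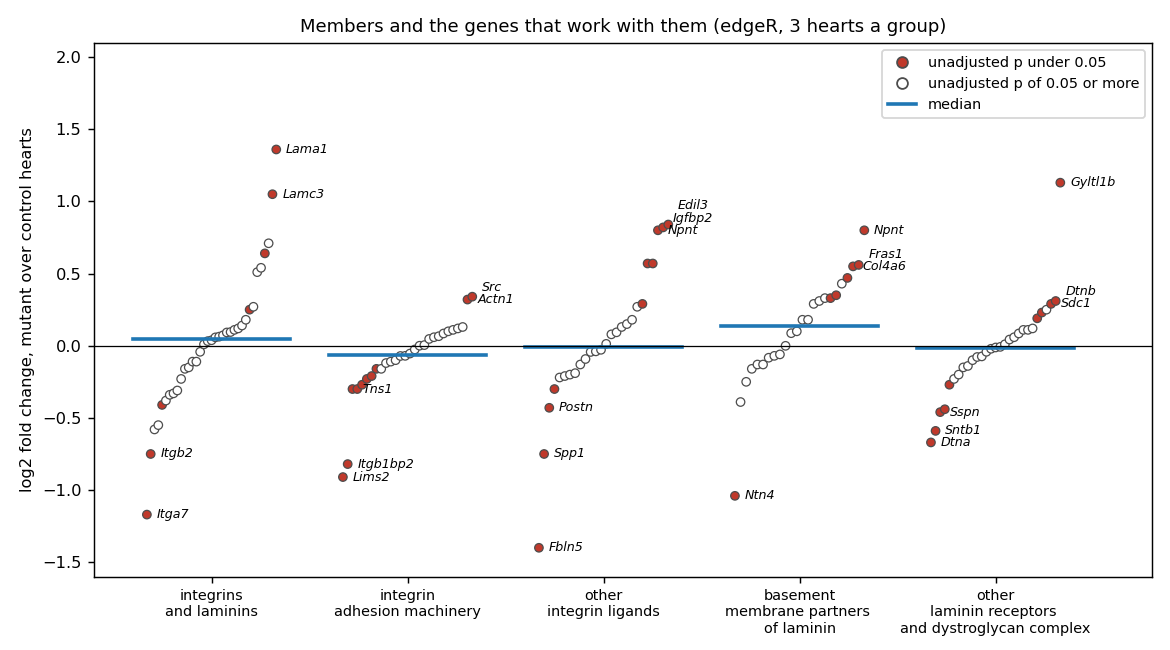
Log2 fold change, mutant over control hearts, of the tested genes among the integrins and laminins and in 4 lists of genes that work with them, ordered by value within a list, with 2 genes not shown; filled points have an unadjusted p under 0.05 and blue lines mark the median over all tested genes of a list. The medians lie close to 0, at 0.048 for integrins and laminins, -0.062 for adhesion machinery, -0.0075 for other ligands, 0.14 for basement membrane partners and -0.016 for laminin receptors.

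Endothelial cells, in which Ino80 was to be deleted, are known to express many of the abundant members. Of the 16 pan-endothelial markers, 0 were higher and 2 lower (Esam and Sox18) at an unadjusted p under 0.05 with edgeR, DESeq2 called 1 of them (Esam), as lower, and their summed level was 1197 to 1547 CPM in control and 1347 to 1384 CPM in mutant hearts. The neural crest and Schwann markers, of which 5 of 9 were tested, summed to 23.5 to 30.8 CPM in control and 22.6 to 27.2 CPM in mutant hearts, and 1 of the 5 (Fabp7) was lower at an unadjusted p of 0.015, with a log2 fold change of -1.06 that was -0.56 without control replicate 2 (DESeq2 adjusted p = 0.035). The share of endothelial cells in the difference of any member was not tested.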

How the data were processed

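RNA of 6 whole hearts (3 control, 3 mutant) was sequenced as 76 bp paired-end reads. The authors deposited raw counts per gene, which were not normalized. STAR 2.4.2a had been used for mapping to GRCm38 (mm10) with GENCODE vM6, and summarizeOverlaps for counting; the overlap mode and the use of strand are not given in the sources used here. The deposited table of the authors' own comparison (mean, log2 fold change, p-value, adjusted p) was used for gene symbols only. Members and gene lists were chosen with earlier results of these data known. Genes were filtered by filterByExpr (minimum count 10, minimum total 15), scaled by TMM and tested with edgeR 4.0.16 (limma 3.58.1, R 4.3.3), with genotype as the only term and Benjamini-Hochberg adjustment over 17125 genes. A standard error is the size of the log2 fold change divided by the square root of F. The steps were tested on simulated data. CPM are TMM-scaled, and levels per kb use merged exons of GENCODE vM21 (GRCm38), which also gave coordinates; 45229 of 45792 genes matched. Promoter windows are from RefSeq (GRCm38.p6), without chromosome 18. An exact permutation test, two-sided, was used for ratios. The results of 2 genes are not reported here. The text names every other member, the genes of the lists by smallest edgeR p (up to 4 a direction), and others chosen after their values were seen (Fn1, Acta2, Des, Ilk, Parva, Lims1, Tln1, Itgb1bp1, Col4a1, Col4a2, Nid1, Hspg2, Dag1). DESeq2 1.42.0, RLE size factors, other filters, thinning, a replicate block and leaving out each heart were tried as alternatives; DESeq2 without each heart, DESeq2 with the block, and the list counts without each heart were added after seeing the data. The common biological coefficient of variation was 0.153, and between 28.9 and 89.7 M counts per heart were available, so hearts, more than counting error, limited precision for all but the low members. Each heart is described as a separate biological replicate.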

Additional observations from a re-analysis of the deposited data

How the results depend on the processing

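At an adjusted p under 0.05, edgeR called 0 members, DESeq2 3, and edgeR with no filter beyond at least 1 count in total 2 (Itga7 and Itgb8), and in edgeR fits that left out 1 heart the count ran from 0 to 2 (the 2 being Itga7 and Itgb8 without control replicate 1). DESeq2 called 2 to 4 members in such fits, with Itgb8 in all of them, Itga7 in all but that without control replicate 2, Lama1 and Itga6 without control replicate 1, Itgav without control replicate 2 and Itga5 without control replicate 3. Over all genes, edgeR called 0, DESeq2 443 higher and 568 lower, edgeR without the filter 262 and 341, and edgeR without control replicate 1 320 and 431. In the DESeq2 fits that left out 1 heart, 150 to 772 genes were called higher and 240 to 978 lower. At an unadjusted p under 0.01, 2 members were higher and 1 lower, beside 1133 of all 17125 tested genes in either direction. Leaving out 1 heart gave 3 to 7 members higher and 2 to 5 lower at an unadjusted p under 0.05, and a median log2 fold change of the members from -0.04 to 0.10. The share of all tested genes at that p, in either direction, ran from 13.7% without mutant replicate 1 to 22.8% without control replicate 1. In these fits 12 members changed sign at least once: Itga1 (-0.23 to 0.088), Itga2b (-0.23 to 0.23), Itgav (-0.41 to 0.05), Itgb1 (-0.088 to 0.018), Itgb3 (-0.30 to 0.0066), Itgb5 (-0.046 to 0.11), Lama3 (-0.058 to 0.23), Lama4 (-0.054 to 0.088), Lama5 (-0.034 to 0.33), Lamb1 (-0.016 to 0.15), Lamb2 (-0.0099 to 0.07) and Lamc1 (-0.056 to 0.21), as did the log2 ratios of Lamb2 over Lamb1 (-0.081 to 0.0057) and Itga6 over Itga5 (-0.079 to 0.18). The other 24 members kept their sign in the fits that tested them (3 of 6 for Itgb6), and none of 209 values under the remaining settings changed sign. Same-numbered control and mutant hearts did not deviate together (correlations of 0.0245, -0.0836 and -0.073), so numbers were not taken as pairs. With the replicate number as a block, an unadjusted p under 0.05 was reached by 3 members higher and 3 lower in mutant hearts, beside 20.2% of all tested genes. With edgeR and the block, 0 members passed an adjusted p (1 gene higher and 13 lower over all genes). DESeq2 with the block called 2 members (Itga7 and Itgb8), beside 320 genes higher and 504 lower over all genes. No heart correlated best with the heart of its own number. The causes of these differences were not tested. Members under about 1 CPM rest on few counts, and their fold changes are correspondingly uncertain.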
